A study of Mus musculus with 74 samples.

Results

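The windows described here were marked by H3K9me3 peaks in reconstructed and in fertilized mouse zygotes. In the somatic donor cells their peak coverage was below the limit for a mark, though not always absent. They are the 1 kb windows of the 19 mouse autosomes (mm10, counted from position 0) with at least 500 bp under peaks in each of 3 lists (14 hpa SCNT embryos, 2-cell SCNT embryos, fertilized PN5 zygotes) and with less than 500 bp under peaks in cumulus cells (CC). This left 12669 members of 2395928 autosomal windows with at least 500 assembled bases, which is 0.529% of the windows and 12.7 Mb. The members made up 15% of the 84186 windows at 14 hpa that were not marked in CC, 25.7% of the 49312 such windows at the 2-cell stage and 16.0% of the 79064 such windows in PN5. The members were thus chosen by their peak coverage in CC, 14 hpa, 2-cell and PN5, and values from these 4 lists are descriptions only.

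The series holds 74 ULI-NChIP-seq libraries, 41 H3K9me3 precipitates and 33 inputs, in which native chromatin of pooled cells was cut with micrococcal nuclease and precipitated. CC, the B6D2F1 donor cells, and SCNT embryos made from them were taken at 6 hpa and 14 hpa (hours after activation of the reconstructed oocyte with strontium chloride and cytochalasin B), in cleavage (2-cell, 4-cell, 8-cell, morula) and at the blastocyst stage, split into ICM (inner cell mass) and TE (trophectoderm). PN5 zygotes, fertilized and late in the pronuclear stage, came from C57BL/6 parents, and the study took its fertilized data from an earlier publication, so embryo type, strain and data source cannot be told apart between PN5 and the other lists. Each group has 1 peak list called on its pooled libraries (2 to 7 precipitates and 2 to 5 inputs), so no value has a replicate error, no test across samples was possible and a single deviant library cannot be seen. A peak list holds no gene expression, so the labelled cell types could not be checked against marker genes.

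H3K9me3, trimethylation of lysine 9 on histone H3, is a mark of constitutive heterochromatin. It is written by SETDB1, SUV39H1 and related methyltransferases, is bound by HP1 proteins and covers many transposon copies, and in embryos much of it is set up anew after fertilization. KRAB zinc finger proteins bring SETDB1 to particular repeat families through TRIM28, so sequence shared among marked windows describes which repeats they hold.

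To show what sequence the members had in common, the 30-base sequence found in most members was taken, the members holding it were set aside, and the search was repeated to give 6 sequences. They were chosen for their number among members, and are printed with every CpG dinucleotide in capitals.
repeat sequence 1: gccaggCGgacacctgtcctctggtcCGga
repeat sequence 2: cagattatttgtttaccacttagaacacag
repeat sequence 3: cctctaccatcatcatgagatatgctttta
repeat sequence 4: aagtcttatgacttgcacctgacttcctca
repeat sequence 5: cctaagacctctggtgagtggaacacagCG
repeat sequence 6: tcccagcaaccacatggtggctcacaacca
Together these sequences lay in 999 members (7.89%), in 1.88% of all autosomal windows and in 14.0% of the windows that met the rule in the marked lists but were also marked in CC. Repeat sequence 1 occurred in 247 members (1.95%) but in 0.0506% of all windows, and 20.4% of the 1212 windows that hold it were members while 52.6% were marked in CC. Repeat sequence 4 was similarly concentrated, with 22.5% of its 601 windows being members and 29.1% marked in CC. By contrast repeat sequence 6 is a common genomic sequence, present in 29665 windows of which 0.374% were members. It was thus no more frequent in members (0.876%) than in all windows (1.24%). No repeat family name was assigned, since no repeat annotation was used, and reads from near-identical copies cannot be placed with certainty.

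The 6 SCNT lists that the rule did not use show what became of these windows before and after. Members were marked most often at the 4-cell stage, with 71.8% of them at least 500 bp under peaks (Wilson 95% interval 71.1 to 72.6), against 3.69% of all autosomal windows not marked in CC. The share was 38.8% at 6 hpa (background 2.13%), 61.0% at the 8-cell stage (background 4.10%) and 58.8% at morula (background 4.18%). In the blastocyst it was 39.0% in ICM (background 3.11%) and 39.5% in TE (background 2.87%). The share of marked members was thus highest right after the 2-cell stage and lower at 6 hpa and in the blastocyst, and in each list it was above the background on 19 of 19 autosomes. Intervals cover counting error over windows only. Neighbouring windows can lie under 1 peak and are not independent.

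The comparison with 3 related sets places these values. Windows marked at 14 hpa and 2-cell but neither in PN5 nor in CC (SCNT-only, n = 14774) had a similar course, with 36.1%, 63.8%, 55.0%, 58.2%, 40.6% and 39.9% marked from 6 hpa to TE. The members exceeded them by 8.06 points at the 4-cell stage (Newcombe 95% interval 6.95 to 9.16) and by 6.01 points at the 8-cell stage (4.84 to 7.18), on 19 of 19 autosomes in both lists. With no CC base allowed in either set, these differences were 5.18 and 3.37 points. At 6 hpa the difference was 2.71 points (1.56 to 3.86), with members higher on 15 autosomes. It was 0.601 points at morula (-0.568 to 1.77), -1.59 in ICM (-2.75 to -0.428) and -0.387 in TE (-1.55 to 0.774). The ICM difference was unstable, from -4.41 with lists trimmed to equal length to 0.750 between fully covered windows. Windows marked in PN5 but at neither 14 hpa nor 2-cell nor in CC (fertilized-only, n = 50559) were marked less often than members at the other SCNT stages. Their shares ran from 3.72% at 6 hpa to 9.11% at the 8-cell stage, and 80.9% of them were in no list from 4-cell on. These shares were above the backgrounds of 2.13% at 6 hpa and 4.10% at the 8-cell stage. The set was chosen for no mark at 14 hpa and 2-cell. Windows that met the rule but were also marked in CC (n = 26534) were marked in 79.2% at 6 hpa and between 79.5% and 87.0% at later stages. The gap between these CC windows and members was smallest at the 4-cell stage, where members were lower by 14.4 points (interval of the difference -15.3 to -13.5), and widest in ICM, where the difference was -44.6 points (-45.5 to -43.6).

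**Figure D1:**
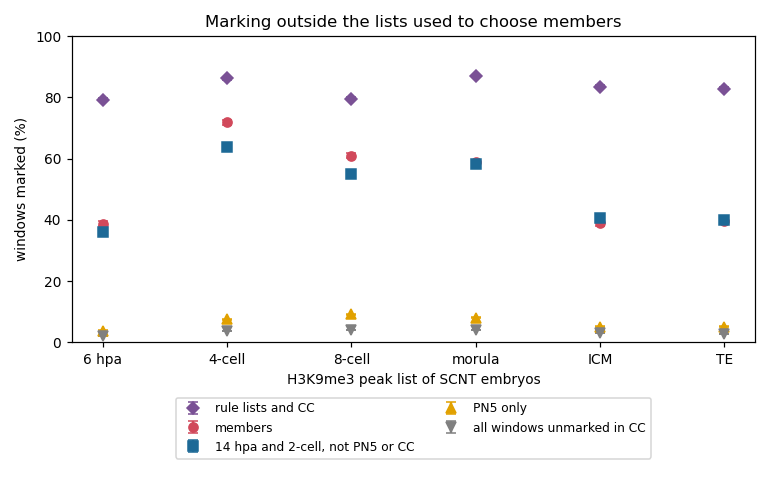
Percent of windows with at least 500 bp under H3K9me3 peaks (y axis) in each SCNT list that was not used to choose the members (x axis), for the members, 3 comparison sets and all autosomal windows not marked in CC, with Wilson 95% intervals. Members reach 71.8% at the 4-cell stage and 39.0% in ICM, whereas windows also marked in CC stay at 79.2% or above in all 6 lists.

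Members did not share a single fate. Of the 12669, 1437 (11.3%) were marked in all 6 other lists and 1161 (9.16%) in none. A further 1099 were marked in every list from 4-cell to TE but not at 6 hpa, and 901 were marked at 4-cell, 8-cell and morula alone. Marking at 1 stage went with marking at the next. The 8-cell list marked 72.3% of the members that carried a 4-cell mark (71.4 to 73.3) but 32.0% of those that did not (30.4 to 33.5). SCNT-only windows were close to this, with 67.2% and 33.5%. Likewise 81.1% of members marked at 6 hpa were marked at the 4-cell stage, against 65.9% of those not marked at 6 hpa. The SCNT-only shares were 72.4% and 58.9%. Of the 7444 members marked at morula, 56.5% were marked in ICM and 57.3% in TE. These shares were 55.8% and 55.6% in SCNT-only windows and 90.1% and 89.3% in the windows also marked in CC. In the blastocyst, 30.3% of members were marked in both lineages, 8.64% in ICM alone and 9.19% in TE alone. For SCNT-only windows the values were 29.4%, 11.2% and 10.5%. Only 270 members (2.13%) had no mark at the 4-cell, 8-cell and morula stages but one in ICM or TE. In SCNT-only windows that share was 4.18%.

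**Figure D2:**
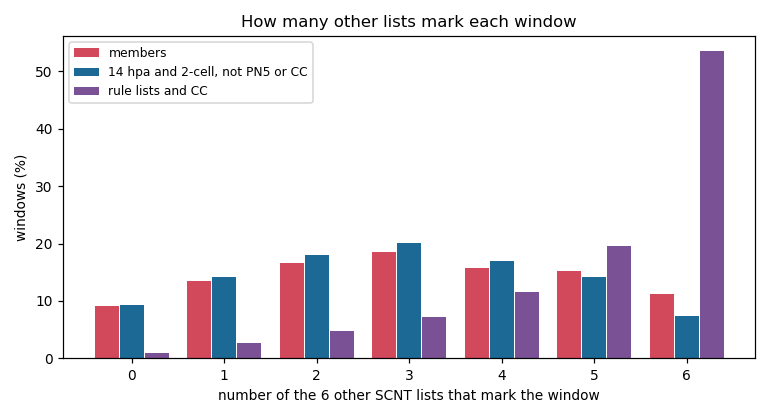
Percent of windows (y axis) by the number of the 6 other SCNT lists that mark them (x axis), for members, SCNT-only windows and windows also marked in CC. Members are spread over all numbers from 0 (9.16%) to 6 (11.3%), and the windows also marked in CC pile up at 6.

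The peaks over members can be described further, although the rule chose them. The median fold enrichment over input, which the peak caller gives once per peak, was 3.39 at 14 hpa, 3.54 in 2-cell embryos and 3.08 in PN5. The corresponding medians of SCNT-only windows were 3.0 and 3.33. Peaks covered the whole window in 57.8% of members at 14 hpa and in 53.7% at the 2-cell stage, against 45.7% and 40.5% of SCNT-only windows. When both sets were kept to windows covered in full at both stages, 4901 members and 3694 SCNT-only windows remained. Their 4-cell share was 82.8% against 74.7% and their 8-cell share 69.8% against 62.3%, so these differences were as large in this subset as in the whole sets. The subset was chosen after seeing the data, and its windows were not matched for fold enrichment or CC coverage. The ICM difference did not keep its sign, at 44.9% against 44.2%. In the lists the rule did not use, marked members had a median fold of 3.39 at the 4-cell stage and 3.52 in both ICM and TE, beside 3.15, 3.31 and 3.31 for all marked windows not in CC.

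Near the threshold, 1597 members had a lowest coverage of 500 to 549 bp, and 1833 windows were left out only because that coverage was 450 to 499 bp. In CC, 8191 members (64.7%) had no base under a peak and 4478 had 1 to 499 bp. A window next to one marked in CC was found for 28.9% of members, 40.7% of SCNT-only, 5.41% of fertilized-only windows and 90.2% of the windows also marked in CC. The share was 6.28% of all windows not marked in CC and 12.3% of all autosomal windows. Members lay in 10036 separate runs of consecutive windows. Of these, 7973 were single windows and 2063 held at least 2, and the longest had 8. Density varied between autosomes from 4.05 to 6.65 members per Mb (5.31 ± 0.815, SD over n = 19 autosomes, which are not replicates), with chromosome 17 highest and chromosomes 3 and 12 lowest.

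Base composition differed between members and the genome, and among members. Their median GC content was 46.7%, against 41.7% for all windows, and 4.06% of them were below 40% GC, against 38.2% of all windows. The comparison sets shared this, with medians of 45.9% in SCNT-only windows, 46.1% in fertilized-only windows and 47.2% in windows also marked in CC. Early marking went with GC content. At 6 hpa, 60.0% of members with at least 50% GC were marked but 9.92% of those below 40% GC. Set against all members below 45% GC (21.7%), the GC-rich members were higher by 38.4 points (36.1 to 40.5) and higher on 19 of 19 autosomes. The same difference was 20.3 points at the 4-cell stage (18.2 to 22.4), -3.95 at morula (-6.32 to -1.57) and -0.430 in ICM (-2.72 to 1.88). In the blastocyst the order over GC classes was not monotonic, with ICM shares of 32.1% below 40% GC, 37.6% from 40 to 45%, 41.7% from 45 to 50% and 36.5% at 50% or more. This order is not particular to the members. The ICM shares of these classes were 1.81%, 3.70%, 4.82% and 2.81% in all windows not marked in CC. In SCNT-only windows they were 37.1%, 40.8%, 41.6% and 38.6%. Among all windows not marked in CC the 6 hpa share also moved with GC content, from 0.246% below 40% to 8.24% at 50% or more, and the part of library GC bias in these values was not tested.

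Repeat content divided the members at other stages. Soft-masked bases, those that the reference sequence gives as repeats, made up a median of 34.4% of a member, 24.9% of all windows and 88.7% of the windows also marked in CC. The 1870 members with at least 80% masked bases and the 3953 with under 20% were marked alike at the 4-cell stage, in 74.5% and 74.6% (difference -0.135 points, -2.56 to 2.23), and at the 8-cell stage, in 64.8% and 64.3% (0.507 points, -2.14 to 3.12). At 6 hpa the repeat-rich members were marked more often, in 52.0% against 36.4% (15.6 points, 12.9 to 18.3, on 19 of 19 autosomes). The widest gaps came after the 8-cell stage. The repeat-rich members were marked in 76.0% at morula, 75.9% in ICM and 72.2% in TE, and the repeat-poor members in 53.9%, 25.1% and 26.6%. The difference was 50.8 points in ICM (48.3 to 53.1) and 45.7 points in TE (43.2 to 48.1), on 19 of 19 autosomes in both. Over all windows not marked in CC, the ICM share was likewise higher in repeat-rich windows, 13.5% against 1.57%, so this order is not particular to the members. Their shares were also higher at 6 hpa (3.50% against 2.05%) and morula (12.9% against 3.10%). The same held at 4-cell (5.99% against 3.85%) and 8-cell (6.35% against 4.41%), where members were marked alike. SCNT-only windows had the ICM order (71.4% against 24.6%) but not the 6 hpa order (36.5% against 39.2%).

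**Figure D3:**
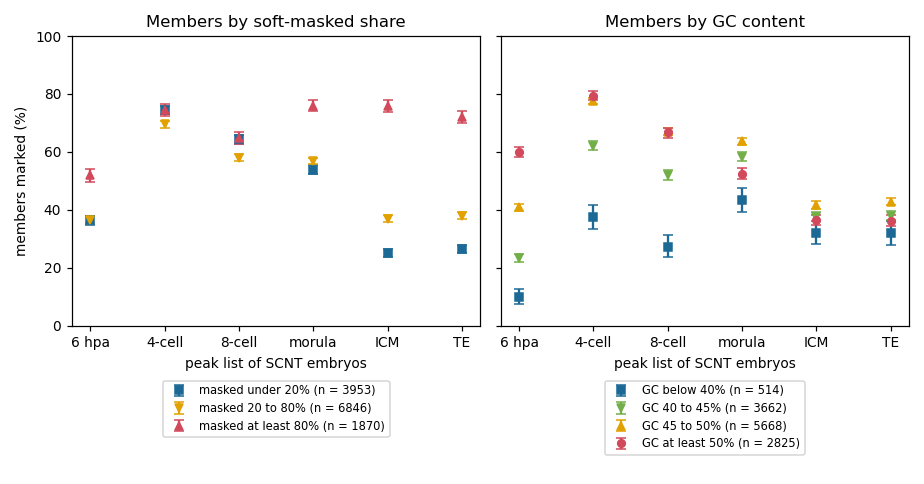
Percent of members marked (y axis) in the 6 SCNT lists not used by the rule (x axis), by share of soft-masked bases (left) and by GC content (right), with Wilson 95% intervals. Repeat-rich and repeat-poor members differ at 6 hpa (52.0% and 36.4%), coincide at the 4-cell and 8-cell stages and are furthest apart in ICM (75.9% and 25.1%), whereas the classes of GC content are furthest apart at 6 hpa.

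The comparison with SCNT-only windows also depended on repeat content. Among windows at least 80% masked, members were marked more often than SCNT-only windows in all 6 lists, by 15.8 points at the 4-cell stage (13.2 to 18.4) and by 4.44 points in ICM (1.91 to 6.93), with members higher on 19 and 15 autosomes. Among windows under 20% masked the 4-cell difference was 4.30 points (2.38 to 6.21), and at 6 hpa members were marked less often than SCNT-only windows (difference -2.80 points, -4.88 to -0.710), whereas the whole sets differed by 2.71 points the other way. In the same class the ICM difference was 0.543 points (-1.31 to 2.40), and in the class between them it was -0.246 points (-1.84 to 1.35). SCNT-only windows held more repeat-rich windows than members, 20.8% against 14.8%, and the lower ICM share of members in the comparison of whole sets was not seen beyond its interval in any of the 3 classes.

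The 6 shared sequences printed above followed separate courses. Members holding repeat sequence 2 were marked in 58.3% at 6 hpa, 87.7% at the 4-cell stage, 96.6% at morula, 95.6% in ICM and 97.5% in TE. Repeat sequence 5 was similar, with 92.1% in ICM and 86.5% in TE. Members with repeat sequence 1 went the other way, with 58.7% at 6 hpa, 67.6% in 4-cell embryos, 29.6% in 8-cell embryos and 24.7% at morula. Repeat sequence 3 fell between them, with 73% in ICM, and repeat sequence 6 had 64% at the 4-cell stage but 29.7% in ICM. The ICM share of the members that hold them thus ran from 29.7% to 95.6%.

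**Figure D4:**
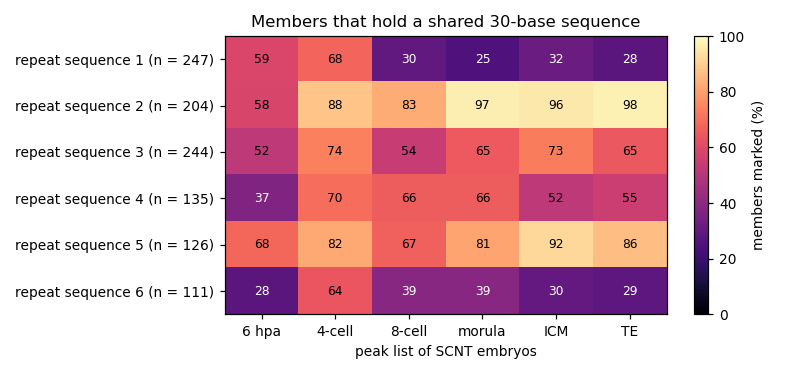
Percent of members marked in each of the 6 SCNT lists not used by the rule (x axis), for members that hold each shared 30-base sequence (rows, with the number of members). Repeat sequence 2 stays at 95.6% or above from morula on, whereas repeat sequence 1 drops to 24.7% at morula.

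Short motifs were counted on both strands, whole within a window, as descriptions of letters and not of binding. TGCCGC, the core bound by ZFP57 at imprinted loci when methylated, was in 13.3% of members, 13.8% of SCNT-only windows, 26.6% of windows also marked in CC and 5.89% of all windows. The E-box CACGTG was in 11.2% of members and 9.62% of all windows, and AAGATGG, the core of the YY1 motif, was in 27.3% and 23.3%. The telomere repeat TTAGGG in 2 tandem copies was in 4 members (0.0316%, against 0.0498% of all windows), and GAA in 4 tandem copies was in 1.08% (0.942% of all windows). Members are richer in GC than all windows, and the part of base composition in these shares was not tested. None of these strings contains another.

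Long runs show how a single region was marked through development. The 6 longest are described, with 2 (runs 7 and 8) of the 16 runs of 5 windows, taken for the highest lowest-of-3 fold. Run 1, chr6:49476001-49484000, lies between genes, 6500 bp from Stk31, and 0.162% of its 8 windows was under CC peaks. Coverage was 23.7% at 6 hpa, 99.8% at 14 hpa, 100% in 2-cell embryos, 90.8% at 4-cell and 75.2% at 8-cell. Morulae had 88.8%, ICM 58.7%, TE 62.8% and PN5 zygotes 100%. It was thus nearly unmarked in donor cells and kept more of its coverage in the blastocyst than the other 7 runs. Its central 200 bases (chr6:49479900-49480099, + strand) hold no CpG.
run 1: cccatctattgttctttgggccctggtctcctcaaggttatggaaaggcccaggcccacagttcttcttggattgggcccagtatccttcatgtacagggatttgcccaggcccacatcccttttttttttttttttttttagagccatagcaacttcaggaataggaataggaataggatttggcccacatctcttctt
Run 2, chr17:85520001-85527000, 61413 bp from Camkmt, was covered in full from the 2-cell to the 8-cell stage and to 17.7% in ICM. Run 3, chr5:139702001-139708000, lies in Micall2 with 261 exonic bases, and its coverage went from 100% in 4-cell embryos to 51.4% in 8-cell embryos and 13.8% in ICM. Runs 4 (5123 bp from Zfp707), 5 (13817 bp from Cnot10), 6 (over the pseudogene Gm30232) and 8 (in Gm4869, 567 exonic bases) all had under 31% ICM coverage. Run 7, chr13:50811001-50816000, had a mean fold of 6.13 at 14 hpa, 4.92 in 2-cell embryos and 3.97 in PN5, which its selection favours, and ICM coverage of 53.7% against 30.2% in TE.

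**Figure D5:**
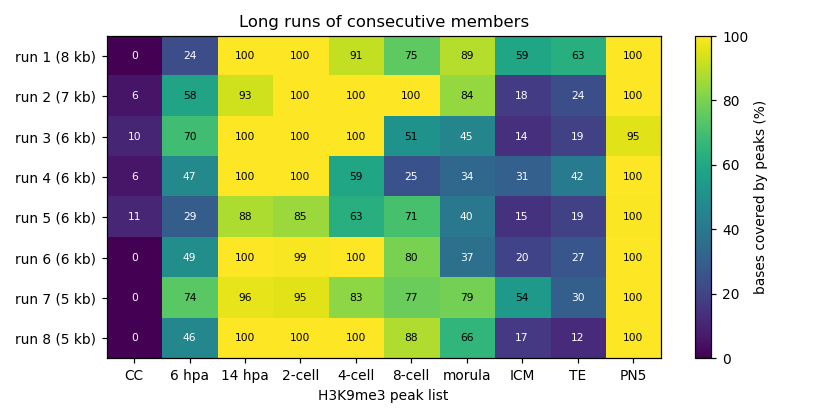
Percent of bases under peaks in the 6 longest runs of consecutive members and 2 runs of 5 windows (rows, with their length in kb) in each of the 10 peak lists (columns), CC, 14 hpa, 2-cell and PN5 having chosen them. ICM coverage is 58.7% in run 1 and 53.7% in run 7 and below 31% in the others.

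The 6 members with the highest lowest-of-3 fold enrichment lie at 3 places. Windows 1 to 3 (chr7:123020001-123024000, with 1 kb between the second and the third, 17444 to 20444 bp from Rbbp6) had a fold of 4.91 at 14 hpa, 5.88 in 2-cell embryos and 5.62 in PN5. The second of them was covered in full in all 9 lists other than CC (373 bp), and its central 200 bases (chr7:123021400-123021599, + strand) are a CAG repeat with interruptions.
window 2: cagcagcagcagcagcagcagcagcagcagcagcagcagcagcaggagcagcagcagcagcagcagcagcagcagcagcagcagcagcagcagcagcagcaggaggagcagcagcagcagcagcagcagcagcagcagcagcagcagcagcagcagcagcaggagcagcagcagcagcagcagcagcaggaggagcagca
Window 4 lies in an intron of Acap2 and had a lowest fold of 4.57 and 36 CpGs, 6 of them in its central 200 bases (chr16:31162400-31162599, + strand).
window 4: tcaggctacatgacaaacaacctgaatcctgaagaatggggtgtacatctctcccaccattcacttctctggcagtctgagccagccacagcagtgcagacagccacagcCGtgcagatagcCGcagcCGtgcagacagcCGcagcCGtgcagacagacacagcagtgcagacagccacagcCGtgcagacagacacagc
Windows 5 and 6 lie in introns of Mepe (lowest fold 4.54). CAG in 4 tandem copies, chosen after this sequence was seen, was in 2.07% of members, 2.00% of SCNT-only windows, 0.803% of windows also marked in CC and 0.551% of all windows.

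Members were mostly outside genes. They were 59.3% intergenic (all windows 50.2%), 24.2% intronic and 6.66% exonic in protein-coding genes, and 9.39% in other annotated genes (GENCODE M21). The intergenic share was 62.0% in SCNT-only windows, 70.5% in windows also marked in CC and 41.0% in fertilized-only windows, so a high share is not particular to members. The 5′ end of a protein-coding gene lay in 64 members, 0.505% against 0.825% of all windows. It lay in 0.426% of SCNT-only windows, 0.230% of windows also marked in CC and 1.07% of fertilized-only windows. The 64 members hold the 5′ ends of 65 of 20807 autosomal protein-coding genes (0.312%), and 2010 genes (9.66%) had a member anywhere over the gene body. Member windows at 5′ ends were marked less often in the later lists, with 56.2% marked at the 4-cell stage, 28.1% at morula, 18.8% in ICM and 12.5% in TE, compared with 71.9%, 58.9%, 39.1% and 39.7% of other members. At 6 hpa they were marked in 51.6% against 38.8%. All windows with a protein-coding 5′ end that were not marked in CC differed likewise from all windows not marked in CC. They were marked more often at 6 hpa, in 8.86% against 2.13%. They were marked less often at the 4-cell stage (2.28% against 3.69%), at morula (1.26% against 4.18%), in ICM (0.873% against 3.11%) and in TE (0.873% against 2.87%). The direction of these differences is thus not particular to members. Of the 14 member windows at 5′ ends that were CpG-rich (at least 50% GC, and more than 0.6 of the CpGs that base composition predicts), 71.4% were marked at 6 hpa. None was marked at morula, in ICM or in TE, where 0 of 14 allows a share of up to 21.4%. That limit is 3 divided by 14, an approximate 95% bound and not a Wilson interval. This was not a trait of CpG-rich members at large, of which 94 were found, 81.9% of them marked at 6 hpa, 21.3% at morula, 33% in ICM and 31.9% in TE.

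Shisa7, Igfbp3 (an insulin-like growth factor binding protein) and Zic2 (a developmental transcription factor) were picked from these 14 after their values were seen. Igfbp3 had 706 bp under peaks at 6 hpa, 646 bp in 4-cell embryos and none at later stages, and Shisa7 had 1000 bp at 6 hpa, 790 bp in 8-cell embryos and none from morula on. Zic2 and Zfp423, a zinc finger transcription factor that the named groups include, both had 1000 bp at 6 hpa and none from the 4-cell stage on. Coverage at these 5′ ends thus stopped at different cleavage stages. The RefSeq promoter of Zfp423 (chr8:87959546-87959845 of GRCm38.p6, - strand, 250 bases before to 50 after the start), shown as an example of a CpG-rich member, holds 21 CpGs and 65.7% GC.
Zfp423: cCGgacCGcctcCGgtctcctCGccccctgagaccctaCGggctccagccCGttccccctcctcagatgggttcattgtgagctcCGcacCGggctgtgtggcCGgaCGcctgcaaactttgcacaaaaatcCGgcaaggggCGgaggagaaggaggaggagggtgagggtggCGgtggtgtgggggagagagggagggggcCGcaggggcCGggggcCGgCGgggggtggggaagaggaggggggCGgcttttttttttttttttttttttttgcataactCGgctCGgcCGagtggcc
Of the 65 genes, 44 matched the RefSeq promoter table, and 37 of these had RefSeq promoter bases in the member window. At the other end, the 5′ ends of Shank2, a postsynaptic scaffold, and Cd300ld4 were marked in all 6 other lists, with Shank2 covered to 1000 bp in each of them, and those of Gm17079, F7 (coagulation factor VII), Fam111a and Celf2 in 5 of 6. These are GENCODE 5′ ends. The RefSeq span of Shank2 starts upstream of its member window, at position 143978077 of chromosome 7, no RefSeq promoter of Fam111a or Celf2 reaches theirs, and the Fam111a window had 498 bp under CC peaks. C8b, a complement component, was marked in 4 of 6, with 0 bp at 6 hpa, 560 bp at the 4-cell stage, 1000 bp at 8-cell, 345 bp at morula, 610 bp in ICM and 586 bp in TE. Its promoter (chr4:104766067-104766366, + strand) holds 6 CpGs and 50.3% GC.
C8b: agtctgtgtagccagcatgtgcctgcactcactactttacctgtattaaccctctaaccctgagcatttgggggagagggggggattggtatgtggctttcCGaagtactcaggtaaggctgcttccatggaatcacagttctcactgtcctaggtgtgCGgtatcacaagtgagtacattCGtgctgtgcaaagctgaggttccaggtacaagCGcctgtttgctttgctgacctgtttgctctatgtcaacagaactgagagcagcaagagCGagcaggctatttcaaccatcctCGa
Pilra, Gm17654, Oas1h, Gm6217, Lce3e and Cks1brt were also marked in 4 of 6, and Gm8020, Gm16506, Clec11a, Cd300c2, Erv3 and the shared 5′ end window of Pcdh12 and Rnf14 in 3, as was Myod1. The 5′ end of Myod1, the muscle determination factor, had 46 CpGs without being CpG-rich by the definition above. It had 1000 bp under peaks at 6 hpa and again in 2-cell, 4-cell and 8-cell embryos and PN5 zygotes, 624 bp at 14 hpa, and 0 bp in CC, morula, ICM and TE. Gm17079, Gm8020 and Gm16506, all on chromosome 14, have RefSeq promoters with long near-identical stretches, so their reads may be shared. Gm17654, on the same chromosome, had no RefSeq promoter to compare, and its reads may be shared as well. The second zinc finger gene with its 5′ end in a member, Zfp976, was covered to 652 bp at the 8-cell stage and was not marked in the other 5 lists.

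Over gene bodies, counts follow gene length, so densities are given too. Windows that touch a protein-coding gene held 3.94 members per Mb, and all windows 5.29. Gm20388 had the most members (45), but its annotated span covers 4436 windows and many other genes. Fgfr2 was next with 24, all of them outside its RefSeq span (105 windows, 0 members) and inside a far longer GENCODE span of 2962 windows. Then came Csmd2 with 23 of 581 windows, Alk, a receptor tyrosine kinase, with 21 of 737, Ulk4 with 18 of 323, Fstl4 with 16 of 425, Ksr2 with 15 of 363 and Stk32b with 14 of 272. By density among genes with at least 5 members, Prodh2, a mitochondrial hydroxyproline dehydrogenase, led with 6 of 21 windows (28.6%), followed by Kcna6, a voltage-gated potassium channel, with 9 of 33 (27.3%), Adgrg3 with 5 of 29, Rhd with 5 of 33, Nova2, a neuronal splicing regulator, with 6 of 41, and Plg, plasminogen, with 6 of 42.

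Gene groups relevant to early embryos were counted in the same way. Over all protein-coding genes, 9.66% had a member over the body, and windows touching them held 3.94 members per Mb. None of the 50 genes active at the 2-cell stage and none of the 67 histone genes had a member over the body. Their spans held only 576 and 167 windows in all. At the density of all gene windows such short spans would hold few members, so these counts are not read as a result about either group. A member touched 9 of 54 germline genes (6.64 members per Mb of the group), 4 of 39 Hox genes (12.7 per Mb), 11 of 59 imprinted genes (4.67 per Mb), 14 of 125 developmental transcription factors (3.81 per Mb), 29 of 458 zinc finger genes (3.77 per Mb) and 3 of 39 pluripotency and trophectoderm regulators, of which Fgfr2 was 1. It also touched 16 of 1128 olfactory receptor genes (2.09 per Mb), 5 of 329 vomeronasal receptor genes (0.901 per Mb), 1 of 57 clustered protocadherin genes and 1 of 31 genes of the H3K9 methylation machinery. Hox, germline and several other groups rest on few windows, and apart from the 2 zinc finger genes no gene of these groups, whose lists do not hold Myod1 or Zic2, had its 5′ end in a member.

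The 4 Hox windows, which lie over exons of Hoxd9, Hoxa9 (2 windows) and Hoxc5 with Hoxc9, had a median GC content of 61.2%. They were marked in 3 of 4 at 6 hpa, 1 of 4 at the 4-cell stage, 3 of 4 at the 8-cell stage and none at morula, in ICM or in TE. The shares of all members were 38.8% at 6 hpa, 71.8% at 4-cell, 61.0% at 8-cell, 58.8% at morula, 39.0% in ICM and 39.5% in TE. Of the 21 windows of developmental transcription factors, 14 were marked at 6 hpa, 11 at the 4-cell stage, 5 at morula and 3 in ICM. Their exonic windows varied, with 1000 bp at 6 hpa and 0 bp at morula over Foxc2, Nkx1-1 and Pax7, 653 bp and 0 bp over Nkx2-3, 0 bp and 831 bp over Irx6, and 0 bp at both over Foxn1. The 16 germline windows were marked in 12 at the 4-cell stage, 4 at morula and 2 in ICM, beside 71.8%, 58.8% and 39.0% of all members, and 8 of them lie in Tdrd9 (5) and Mov10l1 (3), both RNA helicases of the piRNA pathway. In Tdrd9, 1 window (chr12:112062001-112063000) had 1000 bp under peaks from the 4-cell stage to morula and in TE and 473 bp in ICM, whereas the other 4 had no base or at most 99 bp at morula. Of the 19 imprinted windows, 11 were marked in 4-cell embryos, 8 at 6 hpa and 6 in ICM, the last 2 near the 38.8% and 39.0% of all members. A window each of Plagl1 (chr10:13090001-13091000), Rasgrf1 (chr9:89925001-89926000), Mest (chr6:30739001-30740000) and Inpp5f (chr7:128687001-128688000) was covered to 1000 bp in ICM and TE. In contrast, 2 adjacent exonic windows of Gnas (chr2:174327001-174329000) had 705 and 1000 bp at 6 hpa and none from the 4-cell stage on. The single window of the H3K9 machinery, an intron of Atf7ip, a partner of SETDB1, was marked in all 6 lists.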

How the data were processed

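Per the labels, 74 libraries in 20 groups were sequenced. The authors trimmed reads (Cutadapt 1.16, per the submitters' processing notes), aligned them to mm10 with BWA, merged libraries of a group, removed duplicates with Picard, drew equal read numbers and called broad peaks over input with MACS2. The 10 deposited lists give each peak's fold enrichment over input, a ratio, and its −log10 q, both from the authors' peak caller. The depth of single libraries is unknown from the lists, and the lack of a peak says only that none passed the caller's threshold there. Peaks were merged and covered bases counted per 1 kb window (Python 3, numpy), with code tested on simulated peaks. Sequence came from GRCm38.p6, which matches mm10, and genes from GENCODE M21. Shares have Wilson and differences Newcombe 95% intervals for counting error only. The 6 repeated sequences needed at least 15 distinct trinucleotides, and chromosome 18 was left out of that search. Genes and places were named by fixed rules, except where the text says that values were seen first and for single windows of gene groups: the 8 longest runs (ties by fold), the 6 windows of highest lowest-of-3 fold, the leading genes by number or share of members, and genes with the 5′ end in a member, ranked by the number of other lists. Members, lists and strata were chosen with earlier results of these data known.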

Additional observations from a re-analysis of the deposited data

Results flagged for a closer look

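Chromosomes X and Y, which the rule leaves out, also held windows that met its other terms, which drew attention as signal outside the regions compared. On X, 300 windows met them, or 1.83 per Mb, below the range of 4.05 to 6.65 per Mb over the 19 autosomes. On Y, 24 windows did, or 0.272 per Mb. There are no control samples for these chromosomes. CC were collected from the oviducts of female mice, so SCNT embryos made from them have no Y chromosome. The 24 windows on Y can thus not be read as marks on a Y chromosome of these embryos. Where their reads came from was not tested, nor was the sex composition of the PN5 zygotes.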

How the results depend on the processing

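No paired analysis was possible because each group has 1 pooled list, which also meant that leaving out a replicate was impossible. The number of members was 4337 with at least 900 bp required in the 3 marked lists, 8191 with no CC base allowed and between 9923 and 13684 under the other 3 alternatives. Shares of members marked at 6 hpa, 4-cell, 8-cell, morula, ICM and TE were 47.8%, 81.9%, 68.6%, 65.4%, 42.1% and 42.4% with 900 bp, 31.6%, 69.4%, 58.9%, 52.4%, 28.1% and 28.9% with no CC base, and 45%, 70.1%, 57.7%, 52.7%, 42.8% and 44.6% with lists trimmed to equal length. With a −log10 q of at least 2 they were 35.6% at 6 hpa, 69.7% at 4-cell, 52.4% at 8-cell, 56.0% at morula and 37.8% in TE. A grid moved by 500 bp changed none of these shares beyond its interval. The 4-cell stage had the highest share of the 6 lists under all 5 alternatives. The 4-cell difference from SCNT-only windows was 9.83 points with the q limit and 5.18 with no CC base, and the 8-cell difference was 3.37 with no CC base and 7.53, chosen after seeing the data, between windows covered in full at 14 hpa and 2-cell. The ICM difference was -3.70 with the q limit, -3.95 with no CC base and -4.41 with trimmed lists, but 0.750 (-1.37 to 2.87) between fully covered windows, so its sign depends on this setting and the cause was not tested. The share of members at least 80% masked ranged from 9.0% with no CC base to 22.4% with trimmed lists.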
